A study of Mus musculus with 18 samples.

Results

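Elastic fibre and crosslinking genes were examined in ultraviolet-exposed mouse skin and in the papillomas and carcinomas that arose in it. The set comprised 10 of the 14521 named genes of the expression table, selected by symbol and not by a rule on measured values. They were Eln, Fbn1, Fbn2, Fbln1, Fbln2, Fbln5, Emilin1, Lox, Loxl1 and Loxl2. Earlier results of these data were known when the 10 were chosen. All 10 were present. RNA sequencing had been performed on skin of 6 littermate female SKH-1E Hairless mice, an outbred strain in which every animal, controls included, lacks the Hairless gene, and all 6 animals had received chronic low-dose ultraviolet B from solar simulators, starting at 3 months of age. Each mouse (numbered 2, 3, 7, 8, 9 and 10) contributed irradiated skin without a lesion (CHR), 1 benign epidermal outgrowth or papilloma (PAP) and 1 cutaneous squamous cell carcinoma (SCC), so that the 18 libraries formed 3 groups of n = 6. Unirradiated skin was not analysed here, so CHR is itself damaged skin and the comparisons say nothing of the effect of irradiation. Each group value is 1 piece of tissue per mouse, and the lesions were of low histological grade.

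Elastic fibres give skin its recoil. Their core is elastin, which is secreted as the soluble monomer tropoelastin and laid down on a scaffold of fibrillin microfibrils, with fibulins and EMILIN at the interface between the 2 components. Copper-dependent lysyl oxidases then oxidise lysines in tropoelastin, and in fibrillar collagens, to form the covalent crosslinks that make the fibre insoluble. In the dermis these genes are expressed mainly by fibroblasts, with contributions from vascular smooth muscle, whereas a papilloma or carcinoma consists largely of keratinocytes. In bulk tissue such as this, fewer cells of a type and less RNA per cell cannot be told apart.

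The libraries held 15.4 to 21.0 M recovered reads (median 18.9 M), and no library was a copy of another, since any 2 shared 2.24% of their values or fewer. The unit used for levels below is the normalised read, that is, the number of reads recovered from the deposited value divided by the size factor of the library. The 10 fibroblast markers examined (Pdgfra, Dcn, Lum, Dpt, Twist2, Clec3b, Ogn, Fap, Col6a1 and Col6a2) were all expressed in CHR, where their summed level was 43750 to 78930 normalised reads, against 767.8 to 23710 in PAP and 3353 to 59710 in SCC. The lowest sum in both lesion groups was that of mouse 10. The keratinocyte markers ran the other way, with summed levels of 273300 to 425100 in CHR, 663200 to 1081000 in PAP and 225000 to 731100 in SCC.

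Of the 10 genes, 5 had an entry among the RefSeq promoters of GRCm38.p6, and those of 2 fibulins are shown here because Fbln5 fell in papillomas, whereas Fbln1 passed the test in no comparison. The sequences are the 250 bases before the start of transcription, 5′ to 3′, for Fbln5 at chr12:101819120-101819369 on the minus strand and for Fbln1 at chr15:85205699-85205948 on the plus strand. Capitals mark matches to ACGTG, the core of the hypoxia response element, on either strand.
Fbln5: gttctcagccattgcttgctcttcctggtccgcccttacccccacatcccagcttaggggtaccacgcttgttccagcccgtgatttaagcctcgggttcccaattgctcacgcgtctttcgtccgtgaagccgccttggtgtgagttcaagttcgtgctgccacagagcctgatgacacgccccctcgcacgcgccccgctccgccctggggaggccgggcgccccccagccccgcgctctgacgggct
Fbln1: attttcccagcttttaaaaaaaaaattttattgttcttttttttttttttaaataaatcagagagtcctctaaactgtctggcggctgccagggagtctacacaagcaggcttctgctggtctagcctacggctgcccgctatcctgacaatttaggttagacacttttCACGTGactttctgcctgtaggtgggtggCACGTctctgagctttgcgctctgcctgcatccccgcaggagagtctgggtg
Each is the first of 2 entries of its gene. The Fbln1 window held 3 matches to ACGTG, at positions -81, -80 and -52 from the start, of which the first 2 overlap as the opposite strands of a single palindrome. Both Fbln5 windows held 0, as did the windows of Fbn1, Emilin1 and Fbln2. Among 32851 promoters of the same length, 16.6% held this motif on either strand. TGANTCA, the motif of the AP-1 factors, was found in 0 of the members' windows and in 6.75% of all promoters. A match of this kind is a description of the sequence. The 2 windows printed were chosen by their expression results, and whether the motif relates to expression was not tested. Eln, Fbn2, Lox, Loxl1 and Loxl2 had no entry.

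In irradiated skin Fbn1, Lox and Loxl1 had higher levels per kilobase of annotated exon than elastin itself, whereas Loxl2 and Fbn2 had lower medians than Eln. Levels per kilobase of annotated exon are compared here because longer genes collect more reads. Exon length is the union over all annotated transcripts, 8098 bases for Eln. It can exceed the length of the transcripts expressed, so the ranks depend on the annotation. The median in CHR was highest for Fbn1, which encodes fibrillin-1, the main microfibril protein of adult tissue, with 1543 normalised reads per kb. Fbln2 followed with 884.1 and then Lox, the founding lysyl oxidase, with 466.3. Eln was seventh with 108.5, and Fbn2, which encodes the fibrillin that predominates in development, was last with 42.3. The ranges over the 6 mice overlapped in 9 of the 9 pairs of neighbours in this order, so the order of adjacent genes was not resolved, although Fbn1 (1088 to 1943) lay wholly above Lox (330.9 to 529.7) and Lox above Eln (51.5 to 141.0).

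**Figure D1:**
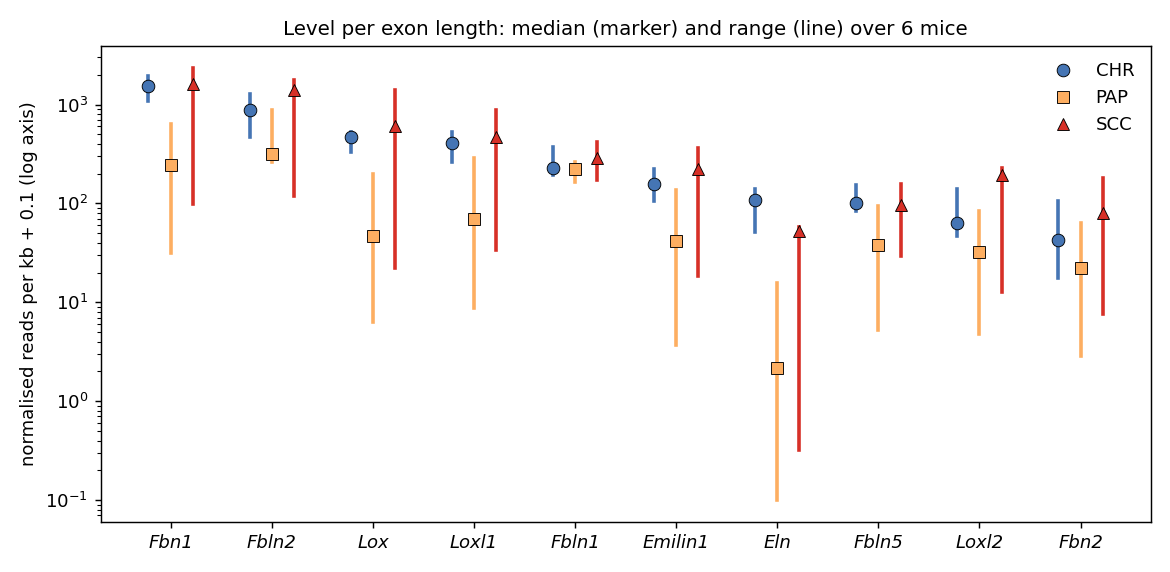
Level of each gene per kb of annotated exon length, as normalised reads per kb plus 0.1 on a log axis, in CHR, PAP and SCC; markers are medians and lines run from the lowest to the highest of 6 mice. Eln fell from rank 7 in CHR to rank 10 in PAP and SCC, while Fbln1 stayed at nearly the same level in CHR (median 225.8) and PAP (220.6).

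The order changed in the lesions. In PAP Eln was last, with a median of 2.05 normalised reads per kb, and Fbln2 (318.1), Fbn1 (242.2) and Fbln1 (220.6) were the leading genes. In SCC the leading 4 were once more Fbn1 (1619), Fbln2 (1387), Lox (609.0) and Loxl1 (473.5), but Eln stayed at rank 10 with 52.0 and Loxl2 rose to rank 7 from rank 9 in CHR. Ranges of neighbours overlapped in 9 of 9 pairs in PAP and in SCC.

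The first comparison asked how the genes differ between a papilloma and the irradiated skin of the same mouse. Of the 10 genes, 7 were lower in PAP at a limma adjusted p under 0.05 (mouse as block), and 0 were higher. Among all genes tested, 29.3% were lower and 23.3% higher by the same rule. The median log2 fold change of the 10 was -1.57, beside 0.0014 for all genes. The 7 were Eln, Fbn1, Fbln5, Emilin1, Lox, Loxl1 and Loxl2, and those 7 and Fbln2 were lower in 6 of 6 mice.

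Eln fell further than any of the other 9. Its normalised reads in CHR were 417.4, 525.7, 1142, 1057, 768.9 and 988.0 in mice 2, 3, 7, 8, 9 and 10, and in PAP 126.5, 8.96, 12.5, 20.7, 45.5 and 0 in the same order. Every papilloma lay below every CHR sample, and the papilloma of mouse 10 had 0 Eln reads, which at a floor of 3 counts allows up to 3 of its 17.6 M reads. The group mean fell 22.9-fold, from 816.5 ± 296.4 to 35.7 ± 47.1 (SD, n = 6), and the fitted change was -3.36 ± 0.49 (SE) on the log2(value + 1) scale with a limma adjusted p of 9.59e-05. In mouse 2, whose papilloma kept the most, Eln was at 30.3% of its CHR level, and in mice 3, 7 and 8 it was between 1.10% and 1.96%. Eln lies on chromosome 5 (GRCm38, 134702593 to 134747323, minus strand), and 3.30% of its exon bases overlap the antisense gene Gm30003. The strand setting of the counting was not given in the sources used here, so reads of the 2 cannot be told apart over those bases.

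The fibrillins fell unequally. Fbn1 (chromosome 2, 125300594 to 125507993, minus strand) ranged from 13200 to 23570 normalised reads in CHR with a median of 18710, and from 378.6 to 7623 in PAP with a median of 2938. The groups did not overlap, and the mean fell 5.44-fold with a log2 change of -2.83 ± 0.54 and a limma adjusted p of 0.000769. Of its exon bases, 20.1% overlap Gm9913 on the other strand, with the same limit on strand. Fbn2 was far lower and more variable, at 232.4 to 1406 normalised reads in CHR and 36.7 to 834.0 in PAP, and its log2 change of -0.94 ± 0.47 did not pass the test (limma adjusted p = 0.110). It was lower in 5 of 6 mice, the exception being mouse 9, where the papilloma held 219% of the CHR level.

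The fibulins and EMILIN-1, which bridge microfibrils and elastin, were graded. Fbln5, a fibulin that binds tropoelastin and is needed for elastic fibre formation, ranged from 580.9 to 1068 normalised reads in CHR and from 35.7 to 655.5 in PAP, a log2 change of -1.44 ± 0.27 (limma adjusted p = 0.000759). Only the papilloma of mouse 9 reached into the CHR range. Emilin1 (518.1 to 1099 in CHR, 17.8 to 679.4 in PAP) changed by -1.71 ± 0.40 with an adjusted p of 0.00325 in limma. Fbln2 (2973 to 8184 in CHR, 1659 to 5608 in PAP) was lower in 6 of 6 mice, but its change of -1.04 ± 0.43 had a limma adjusted p of 0.0586. Fbln1 stood apart, with 846.5 to 1619 normalised reads in CHR and 713.2 to 1134 in PAP, a log2 change of -0.19 ± 0.16 (limma adjusted p = 0.365) and lower values in 4 of 6 mice. The 2 ranges of Fbln1 overlapped between 846.5 and 1134, with 3 papillomas under every CHR sample and 2 CHR samples over every papilloma.

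Among the crosslinking enzymes Lox fell most. In CHR its normalised reads were 1581, 1779, 2481, 2337, 2531 and 2120 in mice 2, 3, 7, 8, 9 and 10, and in PAP 715.9, 190.8, 89.7, 258.6, 940.7 and 29.4. The highest papilloma, that of mouse 9, lay below the lowest CHR sample. The mean fell 5.77-fold and the log2 change was -2.78 ± 0.60 with a limma adjusted p of 0.00179. Loxl1, the lysyl oxidase most closely tied to elastin maintenance, fell by 2.18 ± 0.49 on the log2 scale (limma adjusted p = 0.00252), from a CHR range of 859.2 to 1751 to a PAP range of 28.3 to 938.3. Loxl2, which acts mainly on basement membrane and fibrillar collagen, changed least of the 3. It ranged from 252.2 to 751.5 normalised reads in CHR and from 25.2 to 450.6 in PAP, a log2 change of -0.89 ± 0.35 with a limma adjusted p of 0.0473, and this call was lost on recovered reads in limma-voom (adjusted p = 0.174), without the mouse block (0.146) and when any of the 6 mice was left out (0.0509 to 0.0906). Groups that did not overlap were found for 3 of the 10 genes (Eln, Fbn1 and Lox), and for 19.2% of all genes in the lower direction.

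**Figure D2:**
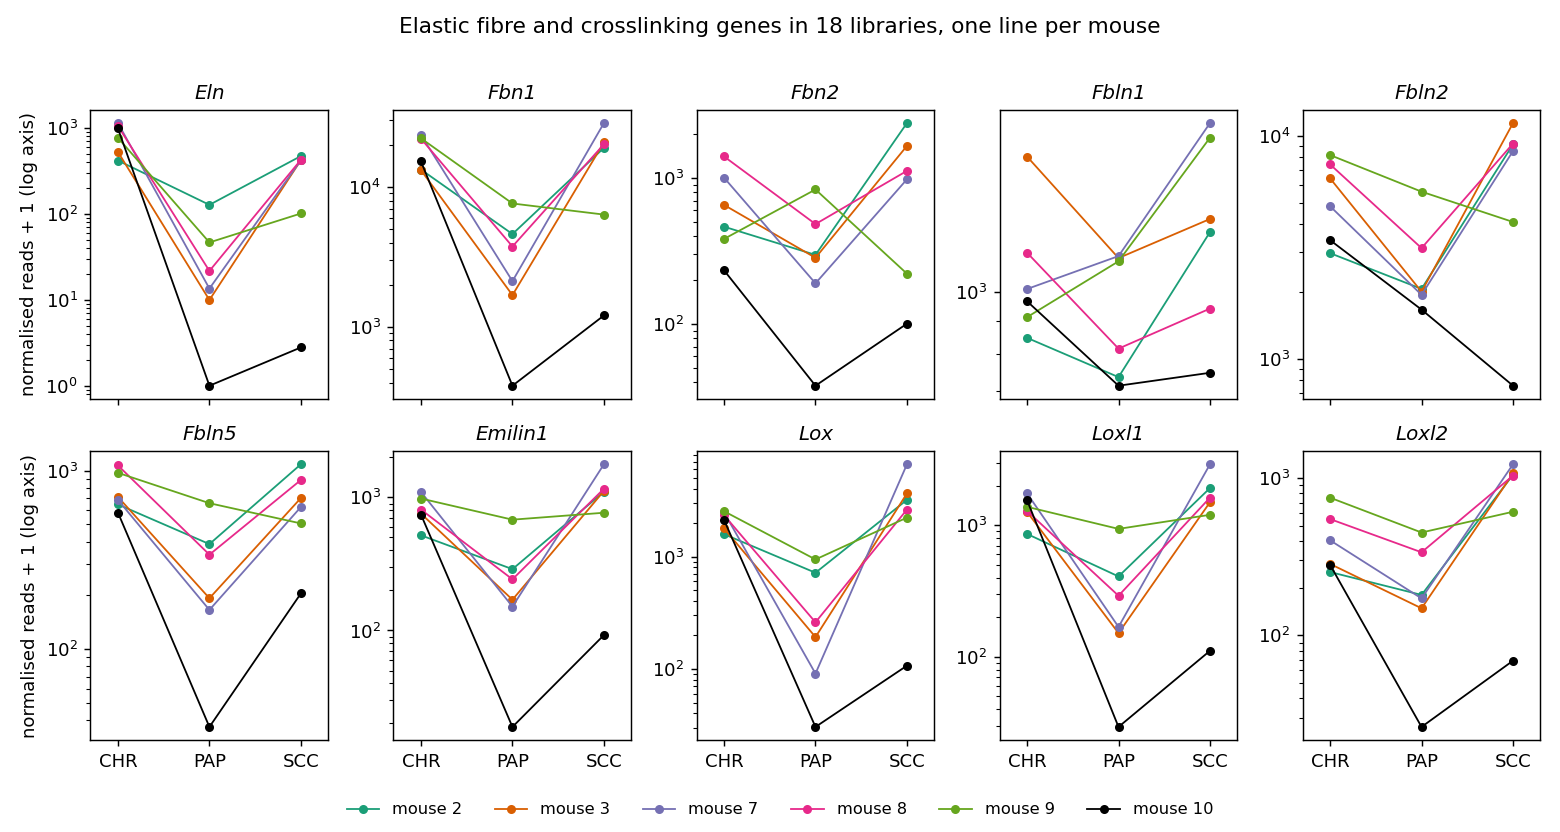
Normalised reads plus 1 on a log axis for the 10 genes in CHR, PAP and SCC, with 1 line per mouse and a separate axis range for each gene. Most lines dip at PAP; the black line of mouse 10 is the lowest in PAP and in SCC in every panel, and Fbln1 spans only 713.2 to 1825 normalised reads in all 18 libraries.

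The second comparison asked how a carcinoma differs from the papilloma of the same mouse. Here 7 of the 10 genes were higher in SCC at a limma adjusted p under 0.05 and 0 were lower, beside 8.75% higher and 1.10% lower among all genes. The median log2 change of the 10 was 1.64, beside -0.0185 for all genes. The 7 were again Eln, Fbn1, Fbln5, Emilin1, Lox, Loxl1 and Loxl2. The PAP libraries enter both comparisons, so low PAP values alone would move both, and the counts are not independent of each other. The count was 3 without the mouse block, 2 (Fbn1 and Lox) in limma-voom and 8 without mouse 9 or without mouse 10. It was 0 in limma when CHR was kept out of the fit, with 9 of the 10 at an unadjusted p under 0.05, and 0 without mouse 3, 7 or 8, with 8, 7 and 9 of the 10 at an unadjusted p under 0.05.

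Lox showed the widest rise on the fitted scale. Its normalised reads in SCC were 3198, 3648, 6634, 2621, 2221 and 105.7 in mice 2, 3, 7, 8, 9 and 10, higher than in the papilloma of the same mouse in 6 of 6. The carcinoma of mouse 10 fell inside the PAP range, and the other 5 lay above the highest papilloma. The mean rose 8.28-fold from 370.8 to 3071, with a log2 change of 2.73 ± 0.60 and a limma adjusted p of 0.0171. Loxl2 rose from a PAP median of 175.5 to an SCC median of 1046 normalised reads, a log2 change of 1.57 ± 0.35 (limma adjusted p = 0.0178). Its SCC values were 1052, 1072, 1227, 1039, 611.3 and 68.1 in mice 2, 3, 7, 8, 9 and 10, so that again only mouse 10 fell inside the PAP range. Loxl1 rose by 2.01 ± 0.49 (limma adjusted p = 0.0252), from a PAP median of 229.2 to an SCC median of 1561.

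Eln rose from almost nothing to an intermediate level. Its normalised reads in SCC were 470.7, 421.9, 420.2, 426.1, 100.2 and 1.79 in mice 2, 3, 7, 8, 9 and 10, so 4 carcinomas lay within a narrow band of 420.2 to 470.7 and the other 2 far beneath it. The log2 change was 1.80 ± 0.49 (limma adjusted p = 0.0363, higher in 6 of 6 mice). The carcinoma of mouse 10 held 2 Eln reads and its papilloma 0, so the difference in that mouse is within counting error. Fbn1 rose by 2.16 ± 0.54 (adjusted p = 0.0264 in limma), Fbln5 by 1.14 ± 0.27 (0.0235) and Emilin1 by 1.71 ± 0.40 (0.0216). Fbn1 and Fbln5 were higher in 5 of 6 mice, the exception in both being mouse 9, and Emilin1 in 6 of 6. Fbn2, Fbln1 and Fbln2 had changes of 1.21, 0.40 and 1.12 with limma adjusted p of 0.129, 0.152 and 0.126.

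**Figure D3:**
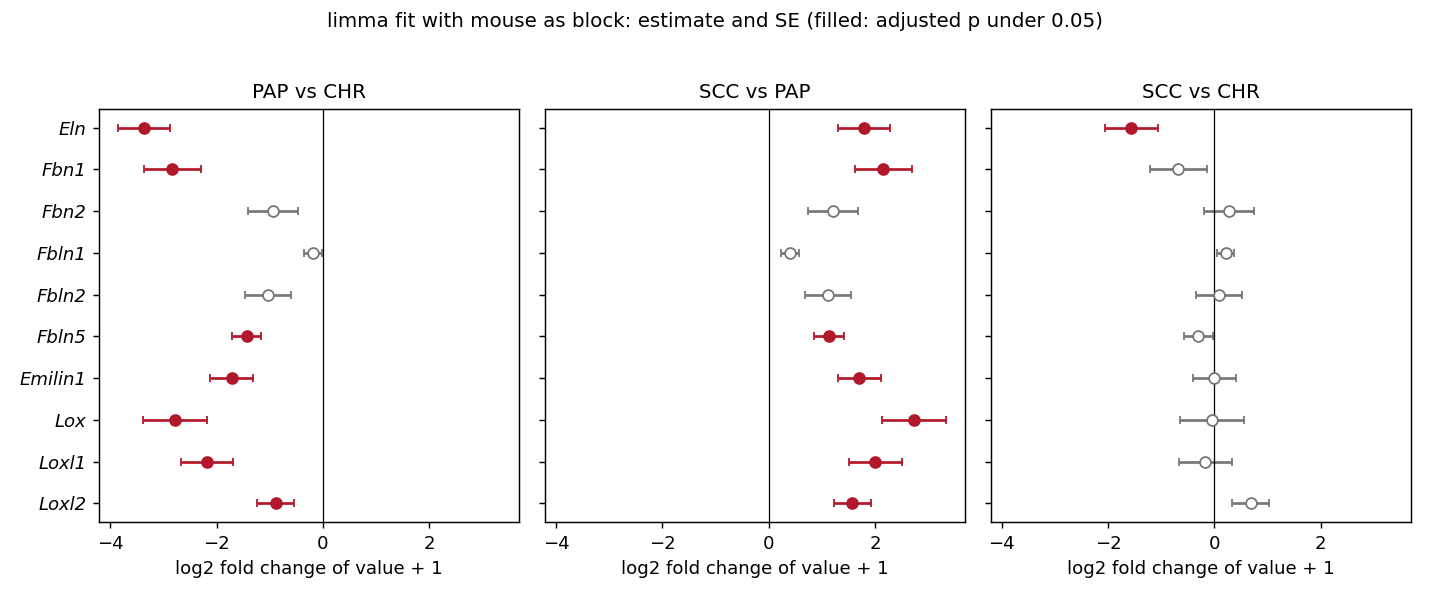
Fitted log2 fold change of value plus 1 with its SE for the 10 genes in the 3 comparisons; filled red points have a limma adjusted p under 0.05. In PAP vs CHR the filled points lie between -3.36 and -0.89, in SCC vs PAP between 1.14 and 2.73, and in SCC vs CHR Eln alone is filled, at -1.56.

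The third comparison set carcinomas against the irradiated skin of the same mice. Of the 10 genes 1 was lower and 0 were higher, beside 22.7% lower and 15.8% higher among all genes, and the median log2 change was -0.026 for the 10 and -0.020 for all genes. The gene was Eln, at 306.8 ± 201.5 normalised reads in SCC against 816.5 ± 296.4 in CHR (SD, n = 6), a log2 change of -1.56 ± 0.49 with a limma adjusted p of 0.0238. It was lower in 5 of 6 mice, at 80.3%, 36.8%, 40.3%, 13.0% and 0.181% of the CHR level in mice 3, 7, 8, 9 and 10, and at 113% in mouse 2. The call was lost in limma-voom (adjusted p = 0.371) and in limma without mouse 8, 9 or 10 (0.0506, 0.0830 and 0.0788), and without mouse 10 the log2 change was -0.98.

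The enzymes were spread over both sides of the CHR level. Lox was at 202%, 205%, 267%, 112%, 87.7% and 4.99% of CHR in mice 2, 3, 7, 8, 9 and 10, a fitted log2 change of -0.05 ± 0.60 (limma adjusted p = 0.959) with 4 mice above and 2 below. Loxl2 was at 417%, 377%, 305% and 189% in mice 2, 3, 7 and 8, at 81.3% in mouse 9 and at 24.3% in mouse 10. Its log2 change over the 6 mice was 0.68 ± 0.35 (limma adjusted p = 0.140), and without mouse 10 it was 1.10 with an adjusted p of 0.0124. Leaving out each mouse in turn gave limma adjusted p of 0.0124 to 0.368, and limma-voom over the 6 mice gave 0.204. A higher level of Loxl2 in SCC than in CHR was therefore called without mouse 10 but not over the 6 mice. Fbn2 and Fbln2 also reached several times the CHR level in mouse 2 (514% and 308%). Fbn2 was above that level in 2 of 6 mice and Fbln2 in 4 of 6, and both lay beneath it in mice 9 and 10. Their fitted changes of 0.27 and 0.08 had limma adjusted p of 0.684 and 0.900. For the 8 genes other than Eln and Loxl2, adjusted p ran from 0.328 to 0.996, which does not show that the levels were alike.

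Within-sample ratios describe the shift between elastin and its enzymes without a fit. They were chosen after the values had been seen and carry no test. The ratio of Loxl2 to Eln reads was 0.284 to 0.977 in CHR (median 0.530), 1.42 to 16.5 in the 5 papillomas with any Eln read, and 2.23 to 38 in SCC (median 2.73). The ratio of Eln to Fbn1 reads was 0.0313 to 0.0648 in CHR and 0.00148 to 0.0247 in SCC, where the highest carcinoma lay under the lowest CHR sample. Both ratios thus separated SCC from CHR in all 12 libraries, although in mouse 10 they rest on 2 Eln reads.

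By the progression scheme of the study, a mixed model with the mouse as random effect and an unadjusted p of 0.05, Eln was an early gene, meaning that SCC differed from CHR and PAP had already moved the same way. The other 9 had no difference between SCC and CHR. Among all genes 41.1% were early and 51.6% had no such difference. Eln had p of 0.000122 for PAP and 0.0186 for SCC, both against CHR, in this mixed model fitted across all genes by the closed form also checked with nlme. Eln left the early class without mouse 9, and Loxl2 became a late gene without mouse 10.

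The fibroblast markers moved with most of the 10 genes. In PAP vs CHR 10 of 10 markers were lower, in SCC vs PAP 5 of 10 were higher, and in SCC vs CHR 5 of 10 were lower. The 5 higher in SCC vs PAP came down to 1 without the mouse block and to 1 in limma-voom. Over the 18 libraries, with each mouse centred on its own mean, the Pearson correlation with the mean log2 value of the markers was 0.973 for Eln, 0.966 for Fbn1, 0.945 for Fbln5, 0.912 for Loxl1, 0.899 for Emilin1 and 0.893 for Lox. It was 0.753 for Fbln2, 0.694 for Loxl2, 0.678 for Fbn2 and 0.362 for Fbln1. These are descriptions over libraries that share groups, mice and depth. Smooth muscle and pericyte markers were also lower in PAP for 5 of 9, with summed levels of 9613 to 13180 normalised reads in CHR, 2523 to 11820 in PAP and 4245 to 19150 in SCC, and 7 of 9 were higher in SCC vs PAP (4 without the mouse block and 4 in limma-voom).

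Markers of skeletal muscle and of adipocytes, which lie under or deep in the skin, were also lower in both kinds of lesion. Skeletal muscle markers were lower in 10 of 10 in PAP vs CHR (median log2 change -6.79) and in 10 of 10 in SCC vs CHR (-3.03), with summed levels of 388200 to 581900 normalised reads in CHR, 163.6 to 29090 in PAP and 383.3 to 194800 in SCC. Adipocyte markers were lower in 7 of 8 in each of these comparisons (medians -4.12 and -3.26), with summed levels of 7546 to 20090 in CHR, 1452 to 12780 in PAP and 1317 to 22290 in SCC. The exception in both was Fabp4, with means of 4447 in CHR, 6129 in PAP and 9762 in SCC. The other 7 had means of at most 39.7 in PAP and 297.7 in SCC, so the lesion sums mostly reflect Fabp4. The part of any of these cell types in the changes of the 10 genes was not tested.

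**Figure D4:**
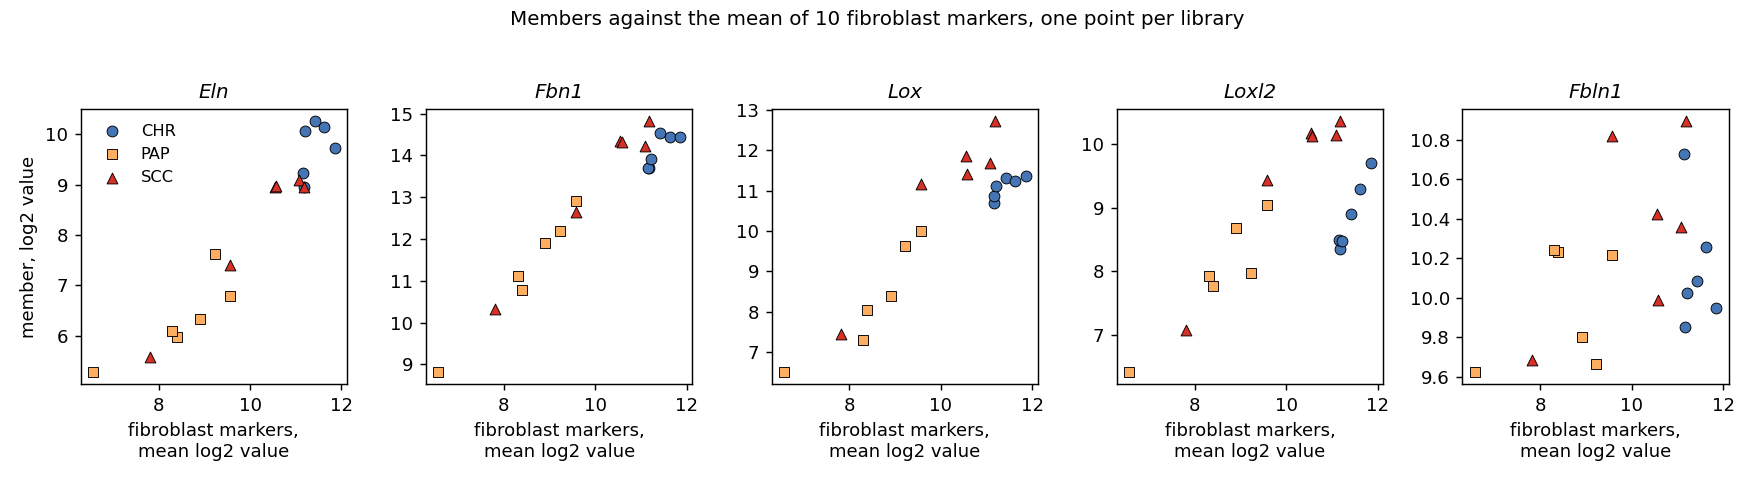
Log2 value of Eln, Fbn1, Lox, Loxl2 and Fbln1 against the mean log2 value of 10 fibroblast markers, with 1 point per library. Eln and Fbn1 follow the markers along a single band; for Loxl2 the CHR points lie below the band of the lesions, and Fbln1 shows little relation.

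The mean change of the fibroblast markers was then subtracted from that of each gene, mouse by mouse. In PAP vs CHR the markers changed by a mean of -2.91 on the log2 scale. Fbn1 differed from them by 0.07 ± 0.46 (SD, n = 6), Lox by 0.12 ± 0.69 and Eln by -0.47 ± 0.65. Fbn1 and Lox lay above the markers in 3 of 6 mice each, and Eln in 1 of 6. Fbln1 lay 2.72 ± 0.89 above the markers, Loxl2 2.02 ± 0.38, Fbn2 1.97 ± 0.95, Fbln2 1.87 ± 0.90, Fbln5 1.47 ± 0.30, Emilin1 1.19 ± 0.36 and Loxl1 0.73 ± 0.61, each in 6 of 6 mice. The deposited scale compresses low values, so the fall of Eln and of the lower markers is understated in these differences. On normalised reads plus 1, a scale added after the data had been seen, Fbn1 lay 0.93 ± 0.43 above the markers in 6 of 6 mice and Eln at -1.74 ± 1.28, in the exact two-sided sign-flip test with adjusted p of 0.052 and 0.0893.

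In SCC vs CHR the markers changed by -1.28, and Loxl2 lay 1.96 ± 0.20 above them, from 1.69 to 2.29 in the 6 mice, mouse 10 included. For Loxl2 this difference was 1.73 against the sum of the markers and 2.26 on normalised reads plus 1, but 0.65 ± 0.74 in 5 of 6 mice against fibrillar collagen genes. Fbn2 (1.54), Fbln1 (1.49), Fbln2 (1.36), Emilin1 (1.27), Loxl1 (1.11) and Fbln5 (0.98) were also above the markers in 6 of 6 mice, Lox (1.23) and Fbn1 (0.60) in 5 of 6, and Eln (-0.29) in 2 of 6. In the exact two-sided sign-flip test 14 of the 30 differences had the smallest p that 6 mice allow, 0.0312, and after Benjamini-Hochberg adjustment over the 30 their p was 0.0669, so 0 passed the threshold. A difference at this smallest p can pass only if many others reach it too, so the outcome says little of any 1 gene. With the fibrillar collagen genes Col1a1, Col1a2 and Col3a1 as the reference in place of the markers, 5 of 30 had that p. In PAP vs CHR Fbn1, Lox and Loxl1 then turned to -1.27, -1.22 and -0.61, and Eln went to -1.81. Fbn1, Lox and Eln were above that reference in 0 of 6 mice. The distance from a stromal reference thus depends on which reference is taken.

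Fbln1 aside, pairs among the 10 genes had a mouse-centred Pearson r of 0.652 to 0.995. On the mouse-centred scale the closest pair was Emilin1 and Loxl1 with a Pearson r of 0.995 over the 18 libraries, followed by 0.983 for Emilin1 and Lox and for Lox and Loxl1. Fbln1 had the weakest relations, between 0.318 (with Eln) and 0.569 (with Loxl1). Loxl2 was closer to Emilin1 (0.897) than to Eln (0.667), but with the group means also removed these were 0.892 and 0.877. These too are descriptions over 18 libraries that share mice and tissue groups.

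Outside the set, the 5 genes most like Eln by the same measure, among 11666 with a mean of at least 100 reads, were Podn (r = 0.987), Mxra7 (0.987), Lpar1 (0.984), S1pr2 (0.984) and Shc2 (0.983). Those most like Lox were Abi3bp (0.989), Cpxm1 (0.985), Pdgfrl (0.984), Fermt2 (0.983) and Bgn (0.981), of which Bgn encodes the small proteoglycan biglycan. Those most like Loxl2 were Cacna1c (0.976), Srpx2 (0.972), Nfatc4 (0.968), Col6a3 (0.967) and Pcsk5 (0.966). The 3 lists of 5 had no gene in common.

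Related genes of the same pathway were examined as fixed lists, of which 46 of 49 genes were in the table. In PAP vs CHR 29 of the 46 were lower and 3 higher by limma adjusted p, with a median log2 change of -1.04. In SCC vs PAP 18 were higher and 0 lower (9 without the mouse block and 7 in limma-voom), and SCC vs CHR had 3 higher and 14 lower (9 lower in limma-voom). Among all genes 29.3% were lower and 23.3% higher in PAP vs CHR. The shares were 8.75% higher and 1.10% lower in SCC vs PAP, and 15.8% higher and 22.7% lower in SCC vs CHR. Several lists were called whole in PAP vs CHR. These were the other fibulins (5 of 5 lower), the EMILIN and multimerin genes (3 of 3), the other lysyl oxidases (2 of 2) and the elastin receptor complex (3 of 3).

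Among the fibulins, Hmcn2, which encodes the large matrix protein hemicentin-2, had the largest change of all 46 genes in PAP vs CHR, from a mean of 4027 to 64.5 normalised reads, a log2 change of -5.10 (limma adjusted p = 1.88e-06). It was lower also in SCC, at 264.2 and -3.76 (5.66e-05). Efemp1 (fibulin-3) changed by -3.08, Hmcn1 by -2.77, Fbln7 by -2.22 and Efemp2 (fibulin-4), which carries Lox to tropoelastin, by -0.86 in PAP vs CHR. Efemp1 was also lower in SCC vs CHR, by -1.97 (limma adjusted p = 0.0168, limma-voom 0.0557). Loxl3 and Loxl4 changed by -1.38 and -1.39 in PAP vs CHR and by 2.04 and 0.86 in SCC vs PAP (limma adjusted p = 0.0187 and 0.0292), the only list called whole in SCC vs PAP. In limma-voom 1 of these 2 was called in each of those comparisons. Emilin2, Mmrn1 and Mmrn2 fell by 2.20, 2.66 and 0.57 on the log2 scale in PAP, and Ctsa, Glb1 and Neu1, whose products form the elastin receptor complex and also act in lysosomes, fell by 1.44, 0.80 and 0.61.

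Microfibril-associated genes were lower in PAP for 5 of 7. Mfap5, which encodes a microfibril glycoprotein, fell by 3.41 on the log2 scale in PAP vs CHR, from a mean of 746.8 to 38.1 normalised reads, and was 2.41 higher in SCC vs PAP (limma adjusted p = 0.0338, limma-voom 0.144). Ltbp1, which holds latent TGF-beta in the matrix, was the exception and was higher in PAP, from 1142 to 2813 normalised reads in 6 of 6 mice (log2 change 1.2, limma adjusted p = 0.00167). Ltbp2 was higher in SCC vs PAP by 2.19 (0.0138).

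Of the 6 elastin-degrading proteases measured, 5 were lower and 1 higher in PAP vs CHR. Ctsk, Mmp12 and Ctss, proteases of macrophages and related cells, changed by -3.77, -3.66 and -3.27, and 6 of 6 myeloid markers were lower as well, with summed levels of 37720 to 60480 normalised reads in CHR, 1283 to 6823 in PAP and 3738 to 56610 in SCC. Their part in these changes was not tested. Mmp9, a gelatinase that also cleaves elastin, was higher by 2.72 in PAP (limma adjusted p = 0.000235) and by 2.60 in SCC (0.000725), both against CHR, in 6 of 6 mice each. Ctsk and Mmp12 were lower in SCC vs CHR by 1.99 and 1.96 on the log2 scale. Mmp2 was higher in SCC vs PAP by 2.01 (limma adjusted p = 0.0149).

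Of the 5 collagen genes whose products lysyl oxidases also crosslink, 3 were lower in PAP (1 without the mouse block) and 0 were called in SCC, both against CHR, where the median was 0.52, and Col5a2 rose by 1.98 in SCC vs PAP (limma adjusted p = 0.0187). The lysyl hydroxylases Plod1, Plod2 and Plod3, which modify collagen lysines before crosslinking, had 0 of 3 called in each comparison, and their median changes were 0.29 (PAP vs CHR), 0.26 (SCC vs PAP) and 0.52 (SCC vs CHR). Among 12 genes of processing and assembly, 1 was higher and 3 were lower in PAP vs CHR. Of the hypoxia-responsive genes listed, 13 of 13 were higher in both PAP and SCC than in CHR, beside 23.3% and 15.8% of all genes. Lox, Loxl1 and Loxl2 were lower in PAP, although the call of Loxl2 was lost in limma-voom (adjusted p = 0.174). Any relation between the hypoxia-responsive genes and these enzymes was not tested.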

How the data were processed

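RNA sequencing of 18 mouse skin libraries was analysed, 6 each of CHR, PAP and SCC, grouped by the sample titles. The authors aligned reads to mm10 (GRCm38) with MOSAIK, counted them per gene with HTSeq, scaled the counts and variance-stabilized them with DESeq2, with a scaling of batch medians. Software versions, annotation release and strand setting are not given in the sources used here. The deposited table holds, per gene and library, a whole-number expression score back on a linear scale, where 39 stands for 0 reads and low expression is compressed. The 10 genes and all lists were chosen with earlier results of these data known.

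The transformation was inverted with a zero level of 39.1, and the spacing of whole reads gave size factors of 0.835 to 1.18. A value counted as whole where a whole number of reads, transformed and rounded, gave exactly the deposited score. This held for 99.9% of values and for 99.8% of values under 100, at least 97.0% of the latter in each library. In libraries with a size factor of 1.08 or more it held for 100% of values, where scores are so close that the check says little. Entries without a symbol (21 of 14542, at most 0.236% of a library's total) were left out. The floor of 3 counts covers counting error only.

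The main test was limma 3.58.1 (R 4.3.3) on log2(value + 1), with group and mouse as factors, all 18 libraries in 1 fit, and Benjamini-Hochberg adjustment over 14521 genes at 0.05. Fold changes on this scale are too small for weakly expressed genes. The mouse was a block because the 3 tissues of a number come from the same animal. Deviations of same-numbered samples from their group means correlated between -0.245 and 0.507. In simulated PAP vs CHR data over 14521 genes the fit recovered 81% of changes of log2 1 and 99% of log2 2. Of its calls 6.25% were false, and an unchanged comparison gave 0 calls. The simulation changed 100 genes by each amount, whereas 7639 were called in the data. Log2 values of Lox had an SD of 0.265 (CHR), 1.33 (PAP) and 1.84 (SCC), those of Fbln1 0.315, 0.298 and 0.467. The false share was not tested for SCC vs PAP, where calls went from 1430 to 0 with CHR left out of the fit. Progression classes used a mixed model on log2(value), checked against nlme 3.1.168 for the 10 genes. Differences from fibroblast markers were tested by an exact two-sided sign-flip over 6 mice. Exon lengths and coordinates are those of GENCODE for GRCm38, and exon length is the union over all annotated transcripts.

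The genes named besides the 10 were, per comparison, the 5 called pathway genes with the largest absolute log2 change, any pathway list called whole in 1 direction, and the 5 genes most correlated with Eln, Lox and Loxl2. Ltbp1 and the lysyl hydroxylases were named after their values had been seen. Alternatives were the fit without the block, a fit of only the groups compared, limma-voom on recovered reads, median centring, no pseudocount, normalised reads plus 1, at least 10 reads in every library, other references for the stromal comparison, and leaving out each mouse. Normalised reads as the scale of the stromal comparison were added after seeing the data.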

Additional observations from a re-analysis of the deposited data

Results flagged for a closer look

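The carcinoma of mouse 10 lay far under the other 5 carcinomas for 4 of the 10 genes, with a gap to the nearest carcinoma that exceeded Dixon's 95% critical value for 6 samples as a share of the group's range. Emilin1 had 91.4 normalised reads there against 766.2 in the next carcinoma (gap 0.678 of the range), Lox 105.7 against 2221 (0.706), Loxl1 110.2 against 1201 (0.697) and Loxl2 68.1 against 611.3 (0.717). Of 30 gene and group combinations examined these 4 passed, and all 4 fell on the same library, while chance passes about 1 in 20. These 4 genes varied together, with mouse-centred Pearson r of 0.869 to 0.995 between them. The 4 passes are therefore not independent and cannot be counted against that rate. In that carcinoma the summed fibroblast markers were also the lowest of the 6, at 3353 normalised reads.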

How the results depend on the processing

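In PAP vs CHR 6 to 8 of the 10 genes were lower in every alternative, and the count of genes called stayed within 1.5 times 7639. Eln, Fbn1, Fbln5, Emilin1, Lox and Loxl1 kept their calls in every fit that included them (the minimum of 10 reads in every library removed Eln), and Loxl2 lost its call in 9 of 13. Centring libraries on their medians moved the median change of all genes from 0.0014 to 0.141 and the share of higher calls from 44.4% to 57.7% in PAP vs CHR, and from 41.0% to 52.5% in SCC vs CHR. With at least 10 reads in every library the share of higher calls was 54.5% in PAP vs CHR. SCC vs PAP depended most on the fit. Without the replicate block it had 810 genes called in place of 1430, 3 of the 10 genes and 9 of the 46 pathway genes in place of 18. In limma-voom with the block it had 855, 2 and 7. With only the 2 groups compared it had 0 and 0 in limma (2830 genes had an unadjusted p under 0.05), and with at least 10 reads in every library 709 genes. Leaving out each mouse gave 0 to 1995 genes and 0 to 8 of the 10. The counts without mouse 3, 7 and 8 were 471, 0 and 0 genes, with 3066, 2450 and 2594 at an unadjusted p under 0.05. Why these mice matter was not tested. Without the block of the pairing by mouse, the markers higher in SCC vs PAP went from 5 to 1 (fibroblast), 7 to 4 (smooth muscle and pericyte) and 5 to 3 (myeloid), and the collagen genes lower in PAP vs CHR from 3 to 1.

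In SCC vs CHR the single call, Eln, went to 0 of the 10 with only the 2 groups compared, in limma-voom and on normalised reads plus 1. Leaving out a mouse gave 0 to 1. The minimum of 10 reads in every library removed Eln before the fit, so that setting could not call it. The small changes of other genes turned sign, to 0.195 (Emilin1) and 0.083 (Lox) in limma-voom and to 0.073 and 0.029 with median centring. Over the left-out mice they ran from -0.12 to 0.49 for Fbn2, -0.22 to 0.51 for Fbln2, -0.20 to 0.47 for Emilin1, -0.34 to 0.67 for Lox and -0.42 to 0.43 for Loxl1. The number of early genes was 0 to 1. Relative to fibroblast markers, 14 of 30 tests had the smallest exact p, against 5 with collagen genes as reference. There Fbn1, Emilin1, Lox and Loxl1 became -1.27, -0.15, -1.22 and -0.61 in PAP vs CHR, and Fbn1, Fbln5, Emilin1, Lox and Loxl1 became -0.71, -0.34, -0.042, -0.086 and -0.21 in SCC vs CHR. With the sum of the markers Fbn1 was -0.034 in PAP vs CHR and Emilin1 -0.045 in SCC vs PAP, and on normalised reads plus 1 Fbn1 was -0.060 and Emilin1 -0.12 in SCC vs PAP. Over the left-out mice Fbn1 ran from -0.060 to 0.18 and Lox from -0.038 to 0.33 in PAP vs CHR, and Loxl2 from -0.15 to 0.049 in SCC vs PAP. The causes of these changes were not tested. Depth limits Eln in the lesions of mouse 10, with 0 and 2 reads.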
